A study of Mus musculus with 32 samples.

Results

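Usp2, Wee1, Cdkn1a, Lonrf3, Coq10b and Cys1 are genes known from several mouse tissues as rhythmic outputs of the circadian clock. They were chosen by name for that property, with earlier results of these data known. All 6 were found among the 41687 rows of the deposited expression table. The study measured RNA from the lungs of 12 adult mice aged 8 to 18 weeks, 6 wild type (WT, C57b/6) and 6 Bmal1 knock-outs (KO), all labelled female. Each lung gave a library after removal of ribosomal RNA (RiboZero) and one after selection of polyadenylated RNA (PolyA), both from 200 ng of RNA. The lungs of mice 3 to 6 of each genotype also gave a library with neither step (NoSelect), from 15 ng of RNA and with 6 preparations combined per mouse, so that there were 32 libraries in 6 groups of 6, 6 or 4. The mice of both genotypes carried no other named allele or treatment. The kind of Bmal1 allele, the cells in which it is deleted and the time of day of sampling are not given in the sources used here, and the WT animals are not said to be littermates of the KO animals.

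BMAL1, encoded by Arntl, pairs with CLOCK and binds E-box elements in DNA, and it drives the genes for its own repressors, the PER and CRY proteins, and for the REV-ERB receptors NR1D1 and NR1D2. The same complex, and the PAR bZIP factors DBP, TEF and HLF that act through D-box elements, also drive output genes outside the loop, whose RNA therefore cycles over the day. USP2 is a deubiquitinating enzyme, WEE1 is the kinase that holds CDK1 inactive before mitosis, and CDKN1A (p21) is a CDK inhibitor and a target of p53. LONRF3 has a RING finger and a LON peptidase N-terminal domain, COQ10B binds coenzyme Q in mitochondria, and CYS1 (cystin) is a protein of the primary cilium whose loss causes cystic kidneys in mice. The lung clock is known from the airway epithelium and from immune cells, and bulk tissue does not separate those sources.

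The genes lie on 6 chromosomes of GRCm38 in the GENCODE M21 annotation, and all 6 are protein coding. Usp2 (ENSMUSG00000032010) lies at chr9:44067021-44095627 on the plus strand and Wee1 (ENSMUSG00000031016) at chr7:110122046-110143286 on the plus strand. Wee1 ends 3.06 Mb before Arntl begins on the same chromosome. Cdkn1a (ENSMUSG00000023067) lies at chr17:29090976-29100727, plus strand, and Lonrf3 (ENSMUSG00000016239) at chrX:36328353-36362341, plus strand. Coq10b (ENSMUSG00000025981) lies at chr1:55052770-55072702, plus strand, and Cys1 (ENSMUSG00000062563) at chr12:24665833-24681813, minus strand.

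Promoter sequence from RefSeq (GRCm38.p6) was found for 5 of the 6 genes, as 6 windows of 250 bases before to 50 bases after a start site. The windows were searched on both strands for the E-box CACGTG, the variant E-box CACGTT, the D-box TTATGTAA and the D-box with a central CG, TTACGTAA; no pair of these overlapped in the members' windows. Coq10b held the D-box, read as TTACATAA, 162 bases upstream of its start and CACGTG 78 bases upstream. Lonrf3 held CACGTG 45 bases upstream. The windows of Usp2, Cys1 and Cdkn1a held none of the 4 motifs, and the window for Usp2 belongs to an internal start 17899 bases after the first base of the gene. Of the 32851 promoter windows in the table, 7.15% held CACGTG, 4.68% the variant E-box, 0.938% the D-box and 0.119% the D-box with the central CG. The 250 bases upstream of the start are shown for the 2 genes with a match and for Cys1, the gene with the largest KO difference, 5′ to 3′ on the strand of the gene, with the motifs in capitals. They cover chr1:55052520-55052769 for Coq10b, chrX:36328159-36328408 for Lonrf3 and chr12:24681796-24682045 for Cys1.
Coq10b: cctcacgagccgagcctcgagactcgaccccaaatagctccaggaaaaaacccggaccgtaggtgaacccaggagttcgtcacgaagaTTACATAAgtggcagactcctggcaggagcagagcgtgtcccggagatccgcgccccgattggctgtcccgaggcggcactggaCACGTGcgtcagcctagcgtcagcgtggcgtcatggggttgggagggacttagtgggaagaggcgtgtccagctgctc
Lonrf3: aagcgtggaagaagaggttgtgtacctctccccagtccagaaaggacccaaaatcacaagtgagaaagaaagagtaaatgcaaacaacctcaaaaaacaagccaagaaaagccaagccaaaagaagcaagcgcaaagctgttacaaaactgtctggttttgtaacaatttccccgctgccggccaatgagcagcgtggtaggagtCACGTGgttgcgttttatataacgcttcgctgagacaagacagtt
Cys1: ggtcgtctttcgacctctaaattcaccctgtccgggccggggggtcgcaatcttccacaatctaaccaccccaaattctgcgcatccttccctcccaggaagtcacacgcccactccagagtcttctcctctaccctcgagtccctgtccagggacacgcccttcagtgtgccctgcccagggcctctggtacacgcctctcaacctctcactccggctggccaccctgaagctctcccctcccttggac
A match describes the letters of the window and shows neither binding nor use of the site.

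Estimated counts per library summed to 11638594 to 25801237 in RiboZero, 29924325 to 41548830 in PolyA and 74979802 to 115059756 in NoSelect. Levels are given as CPM, counts scaled to library size, with trimmed-mean (TMM) scaling over all 32 libraries, with mean ± SD, and differences as log2 fold changes of KO against WT within a preparation. A gene was called where its p from edgeR's quasi-likelihood test, adjusted by Benjamini-Hochberg over all rows tested, was under 0.05. Arntl, which checks the genotype labels, was at 30.9 ± 2.9 CPM in WT and 17.4 ± 1.31 in KO RiboZero libraries (n = 6 each), 21.9 ± 1.82 and 18.6 ± 1.48 in PolyA (n = 6 each), and 28.7 ± 0.853 and 17.8 ± 0.96 in NoSelect (n = 4 each). The KO libraries lay below all WT libraries in RiboZero and NoSelect and overlapped them in PolyA, and reads outside a deleted part of the gene cannot be told from an intact transcript in gene counts. Nr1d1, a direct BMAL1 target, was at 2.4% to 3.6% of its WT mean in the KO libraries of each preparation. The NoSelect library of KO mouse 6 is labelled liver, but it held Sftpc at 5330 CPM and Scgb1a1 at 12600 CPM, lung markers that were at 3610 to 4940 and 7410 to 12700 CPM in the other NoSelect libraries, and Alb, the main liver transcript, at 0.391 CPM. KO mouse 6 is labelled female, yet its 3 libraries had a summed level of Y-linked genes of 104 to 190 CPM against at most 0.036 in the other 29, and Xist at 0.0482 to 0.391 CPM against 250 to 1580. Both doubts fall on KO mouse 6, so the KO difference of each of the 6 genes, and the calls on related genes, are also given without it.

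Of the 6 clock outputs, Cys1 was lower in the KO lungs in all 3 preparations, Wee1 was lower and Lonrf3 higher in the PolyA libraries, and Usp2, Cdkn1a and Coq10b were called in no preparation. The count of calls was therefore 1 in RiboZero, where 3.46% of all 16710 rows tested were called, 3 in PolyA, where 4.03% of 17211 were, and 1 in NoSelect, where 2.17% of 17124 were. All 6 genes passed the filter on low counts in every preparation. Libraries of the genotypes did not overlap in 1, 2 and 2 of the 6 genes in RiboZero, PolyA and NoSelect, against 2.89%, 3.32% and 9.48% of all rows tested. Changes in the number of expressing cells and in RNA per cell cannot be told apart in bulk lung.

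**Figure D1:**
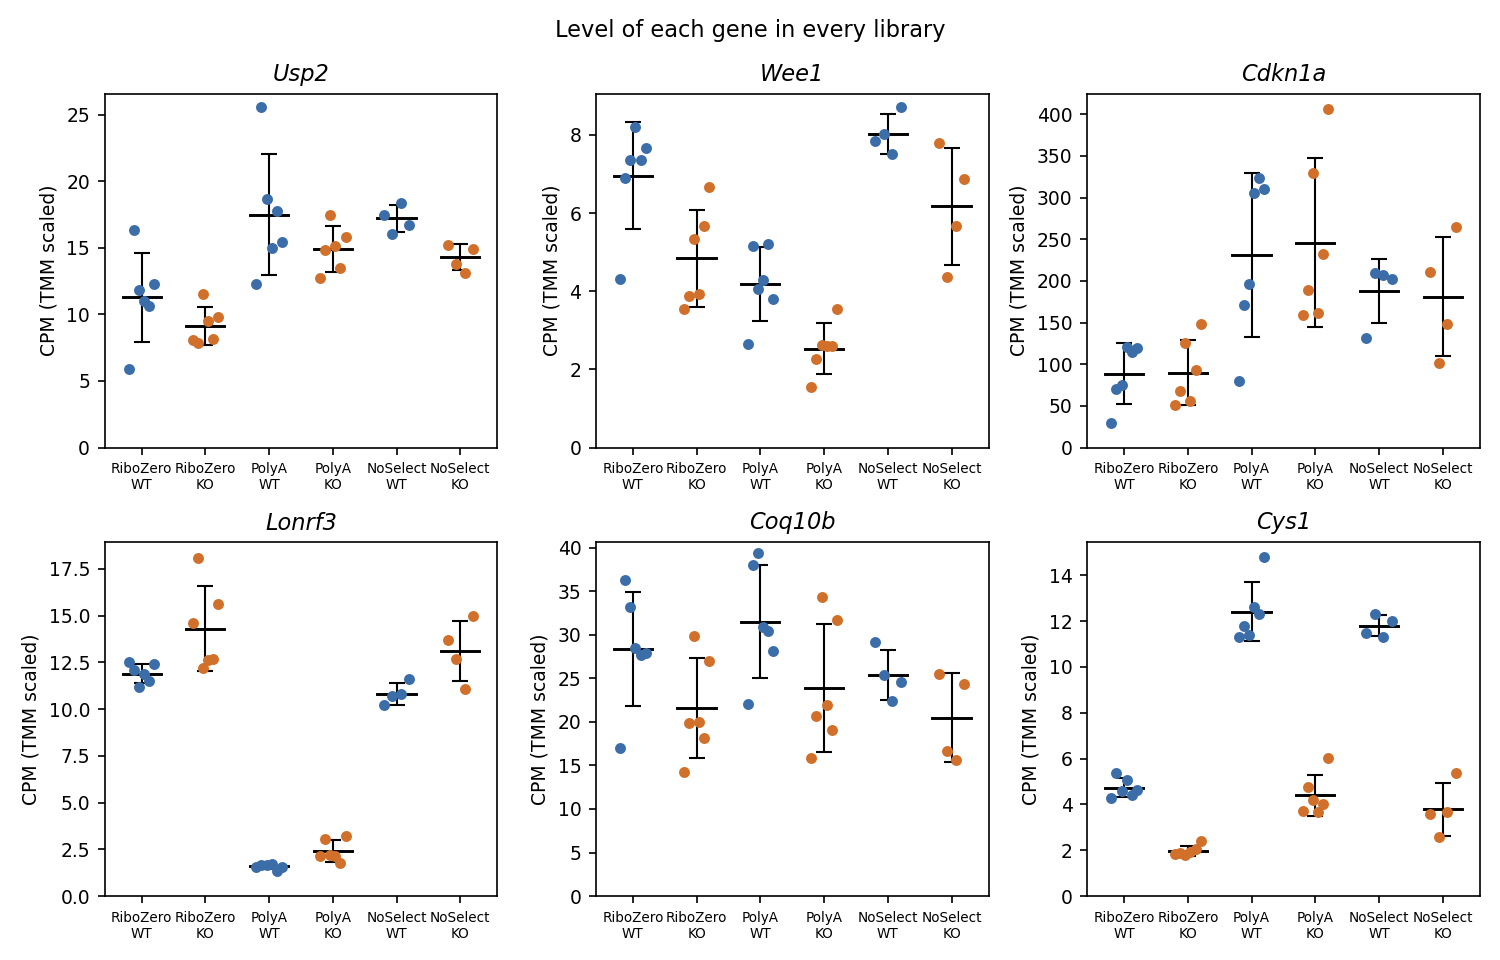
Level of each of the 6 genes in every library, in TMM-scaled CPM (y axis, from 0) by preparation and genotype (x axis). Points are mice, bars the mean ± SD (n = 6 per group, 4 in NoSelect); for Cys1 the KO points lie below all WT points in each preparation, while for Cdkn1a the genotypes overlap in each preparation.

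**Figure D2:**
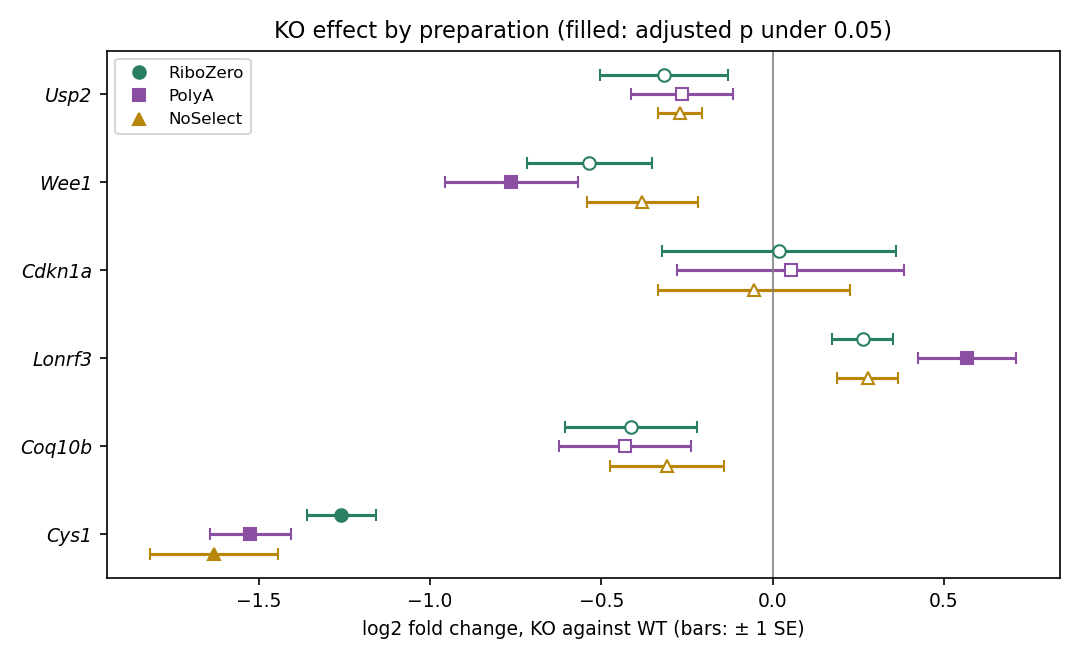
Log2 fold change of KO against WT for each gene in RiboZero (circles), PolyA (squares) and NoSelect (triangles), with bars of ± 1 SE and filled symbols for an adjusted p under 0.05. Cys1 is filled in all 3 preparations and lies between -1.63 and -1.26; Wee1 and Lonrf3 are filled in PolyA alone.

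Cys1, the cilium gene, had the largest KO difference of the 6. In RiboZero, the WT libraries held 4.28 to 5.39 CPM (median 4.61) and the KO libraries 1.78 to 2.4 (median 1.9). In PolyA, WT held 11.3 to 14.8 CPM (median 12) and KO 3.67 to 6.01 (median 4.11). In NoSelect, WT mice 3 to 6 held 11.5, 12.3, 11.3 and 12 CPM, and KO mice 3 to 6 held 3.56, 2.58, 3.65 and 5.35. The groups did not overlap in any preparation, and KO mouse 6 had the highest KO value in each. The KO mean was 41.8%, 35.6% and 32.2% of the WT mean in RiboZero, PolyA and NoSelect. The log2 fold change was -1.26 (SE 0.100, adjusted p = 1.66e-05) in RiboZero, -1.52 (SE 0.118, adjusted p = 1.12e-05) in PolyA and -1.63 (SE 0.187, adjusted p = 0.00482) in NoSelect by edgeR's quasi-likelihood test and Benjamini-Hochberg adjustment. Without KO mouse 6 it was -1.32, -1.62 and -1.85. The lowest estimated counts of the gene, 25 to 62, were those of the KO RiboZero libraries. Cys1 was called lower in every alternative fit and with any 1 mouse left out.

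Wee1, the CDK1-inhibiting kinase, was lower in KO libraries of PolyA. The WT PolyA libraries held 2.66 to 5.21 CPM (median 4.17) and the KO libraries 1.54 to 3.55 (median 2.59), and 5 of the 6 KO libraries lay below all WT libraries. The log2 fold change in PolyA was -0.76 (SE 0.193, adjusted p = 0.0457 by edgeR's quasi-likelihood test and Benjamini-Hochberg adjustment). In RiboZero, WT held 4.32 to 8.2 CPM (median 7.35) and KO 3.54 to 6.66 (median 4.63), a log2 fold change of -0.54 (SE 0.183, adjusted p = 0.145 by edgeR with Benjamini-Hochberg adjustment). In NoSelect, WT mice 3 to 6 held 7.84, 8.03, 7.5 and 8.7 CPM and KO mice 3 to 6 held 7.8, 4.37, 5.67 and 6.87, a log2 fold change of -0.38 (SE 0.161, adjusted p = 0.299 by edgeR with Benjamini-Hochberg adjustment), or -0.43 (adjusted p = 0.262) without KO mouse 6. Every KO library was below the WT median of its preparation, and the KO mean was 69.4%, 60.4% and 77.0% of WT in RiboZero, PolyA and NoSelect. The PolyA call was lost in 10 of 12 fits that left out 1 mouse, with adjusted p up to 0.108 without WT mouse 5, and was kept without KO mouse 6 (-0.87, adjusted p = 0.0268). In RiboZero, leaving out WT mouse 1, the lowest of its group, gave -0.64 (adjusted p = 0.0491), and leaving out KO mouse 6 gave -0.65 (adjusted p = 0.0694). KO mouse 3 of NoSelect lay among the WT libraries.

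Lonrf3, the RING finger gene on the X chromosome, differed the other way. In PolyA, WT held 1.36 to 1.7 CPM (median 1.62) and KO 1.76 to 3.21 (median 2.17), with no overlap, from 80 to 200 estimated counts per library. The KO mean was 152.1% of the WT mean there, and the log2 fold change was 0.57 (SE 0.144, adjusted p = 0.0454 by edgeR's quasi-likelihood test and Benjamini-Hochberg adjustment). In RiboZero, WT held 11.2 to 12.5 CPM (median 12) and KO 12.2 to 18.1 (median 13.7), a log2 fold change of 0.26 (SE 0.0888, adjusted p = 0.142 by edgeR with Benjamini-Hochberg adjustment). In NoSelect, WT mice 3 to 6 held 10.2, 10.7, 10.8 and 11.6 CPM and KO mice 3 to 6 held 13.7, 12.7, 11.1 and 15.0, a log2 fold change of 0.28 (SE 0.0898, adjusted p = 0.182 by edgeR with Benjamini-Hochberg adjustment). Every KO library was above the WT median, and 5 of 6 in RiboZero and 3 of 4 in NoSelect were above all WT libraries. KO mouse 6, whose libraries looked male, had the highest KO level in PolyA and NoSelect. Without it the PolyA log2 fold change was 0.48 (adjusted p = 0.0745) and those of RiboZero and NoSelect were 0.24 and 0.21. The PolyA call was also lost without 9 of the other 11 mice, with the mouse number as a block (adjusted p = 0.0625) and in mice 3 to 6 alone (adjusted p = 0.179).

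Usp2, the deubiquitinase, was called in no preparation. In NoSelect, WT mice 3 to 6 held 17.5, 16.0, 18.4 and 16.7 CPM and KO mice 3 to 6 held 15.2, 13.8, 13.1 and 14.9. These groups did not overlap, yet the log2 fold change of -0.27 (SE 0.0644) had an adjusted p of 0.0776 by edgeR's quasi-likelihood test and Benjamini-Hochberg adjustment, and DESeq2 gave an adjusted p of 0.0275. In RiboZero, WT held 5.89 to 16.3 CPM (median 11.4) and KO 7.83 to 11.5 (median 8.83). In PolyA, WT held 12.3 to 25.6 CPM (median 16.6) and KO 12.7 to 17.5 (median 14.9). The WT range covered that of all KO libraries in both, since WT mouse 1 was the lowest and WT mouse 2 the highest library of its preparation. The log2 fold change was -0.32 (SE 0.187, adjusted p = 0.443) in RiboZero and -0.26 (SE 0.148, adjusted p = 0.377) in PolyA by edgeR with Benjamini-Hochberg adjustment. Without KO mouse 6 the values were -0.34, -0.27 and -0.29 in RiboZero, PolyA and NoSelect.

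Coq10b, the coenzyme Q binding gene, was called in no preparation. In RiboZero, WT held 17.0 to 36.3 CPM (median 28.2) and KO 14.3 to 29.9 (median 20). In PolyA, WT held 22 to 39.4 CPM (median 30.7) and KO 15.8 to 34.3 (median 21.3). In NoSelect, WT mice 3 to 6 held 29.2, 25.4, 22.4 and 24.6 CPM and KO mice 3 to 6 held 25.5, 16.7, 15.6 and 24.4. The groups overlapped in each preparation, with 1 of 6, 4 of 6 and 2 of 4 KO libraries below all WT libraries. The log2 fold change was -0.41 (SE 0.192, adjusted p = 0.306) in RiboZero, -0.43 (SE 0.192, adjusted p = 0.257) in PolyA and -0.31 (SE 0.166, adjusted p = 0.426) in NoSelect by edgeR's quasi-likelihood test and Benjamini-Hochberg adjustment. KO mice 3 and 6 were the 2 highest KO libraries in every preparation, and without KO mouse 6 the values were -0.49, -0.51 and -0.40.

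Cdkn1a, the CDK inhibitor p21, had nearly equal group means and the widest spread. In RiboZero, WT held 29.5 to 121.0 CPM (median 94.7) and KO 51.3 to 148.0 (median 80.2). In PolyA, WT held 79.7 to 324.0 CPM (median 251.0) and KO 159.0 to 406.0 (median 210.0). In NoSelect, WT mice 3 to 6 held 131.0, 210.0, 207.0 and 202.0 CPM and KO mice 3 to 6 held 211.0, 101.0, 148.0 and 265.0. The groups overlapped throughout, and the KO mean was 101.9%, 106.4% and 96.6% of the WT mean. The log2 fold change was 0.02 (SE 0.342, adjusted p = 0.989) in RiboZero, 0.05 (SE 0.331, adjusted p = 0.955) in PolyA and -0.05 (SE 0.281, adjusted p = 0.956) in NoSelect by edgeR's quasi-likelihood test and Benjamini-Hochberg adjustment. These SEs leave room for differences that the test could not call. The sign changed with single mice: without KO mouse 6 the values were -0.18, -0.13 and -0.29.

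The spread between mice of 1 genotype differed widely among the 6 genes. The SD of log2 CPM among WT libraries was 0.784 for Cdkn1a in RiboZero and 0.781 in PolyA, where the median over all rows tested was 0.141 and 0.162. The WT range of Cdkn1a spanned 4.09-fold in RiboZero and 4.07-fold in PolyA, and WT mouse 1 set the low end: without it the range was 1.71-fold and 1.9-fold and the SD 0.388 and 0.43, against medians of 0.129 and 0.154 over all rows. Usp2, Wee1 and Coq10b had WT SDs of 0.48, 0.331 and 0.377 in RiboZero, and 0.244, 0.091 and 0.176 without WT mouse 1. Lonrf3 and Cys1 were below the median in WT RiboZero libraries, at 0.0612 and 0.125. Among KO libraries, Lonrf3 was above the median in all 3 preparations (0.219, 0.331 and 0.18, against 0.159, 0.155 and 0.133 in RiboZero, PolyA and NoSelect), and Cys1 was above it in PolyA (0.266) and NoSelect (0.424) and not in RiboZero (0.153). These medians are over rows of all levels. Over rows of a level like theirs, the KO medians were 0.127, 0.249 and 0.113 for Lonrf3 and 0.31, 0.194 and 0.195 for Cys1. Cdkn1a was above the median over all rows in KO libraries of each preparation as well (0.628, 0.56 and 0.609). In WT NoSelect libraries, which lack mice 1 and 2, the SD was under the median of 0.11 for Usp2 (0.0873) and Wee1 (0.0899) and above it for Cdkn1a (0.331) and Coq10b (0.159). Over rows of a level like that of Usp2 the median there was 0.0811, which Usp2 exceeded.

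For some of the 6 genes, most mice kept their place within their genotype between preparations of the same lung. WT mouse 1 was the lowest WT mouse for 5 of the 6 genes, all but Lonrf3, in both RiboZero and PolyA. For Cys1 its deviation was small, at -0.139 and -0.12 on the log2 scale. KO mouse 1 was the lowest KO mouse for Wee1, Cdkn1a and Coq10b in RiboZero and for these and Usp2 in PolyA. For Cdkn1a, 12 of 12 mice lay on the same side of their genotype mean in RiboZero and PolyA, and for Coq10b 11 of 12 did. The count was 9 of 12 for Usp2 and for Wee1, 8 for Cys1 and 7 for Lonrf3. Over all 3 preparations, 7 of 8 mice kept their side for Cdkn1a and for Coq10b, 6 for Cys1, 4 for Usp2 and for Lonrf3, and 3 for Wee1. The NoSelect means cover mice 3 to 6 alone, so sides there are set against a different mean. For Cdkn1a, KO mouse 5 was at 0.153 in RiboZero and -0.2 in NoSelect. Some mice keep their side by chance alone, and the share over all rows was not counted. Deviations of the same mouse over 13371 rows correlated at 0.48 to 0.773 between PolyA and RiboZero, so keeping a side is not particular to these genes. The deviations of WT mouse 1 in Cdkn1a were -1.44 (RiboZero) and -1.39 (PolyA) on the log2 scale, and those of KO mouse 6 were 0.83, 0.82 and 0.64 in RiboZero, PolyA and NoSelect. Because the preparations share the lung, they repeat the measurement of a mouse and add no mice. Whether the time of sampling, which the labels do not give, moved with these values was not tested.

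**Figure D3:**
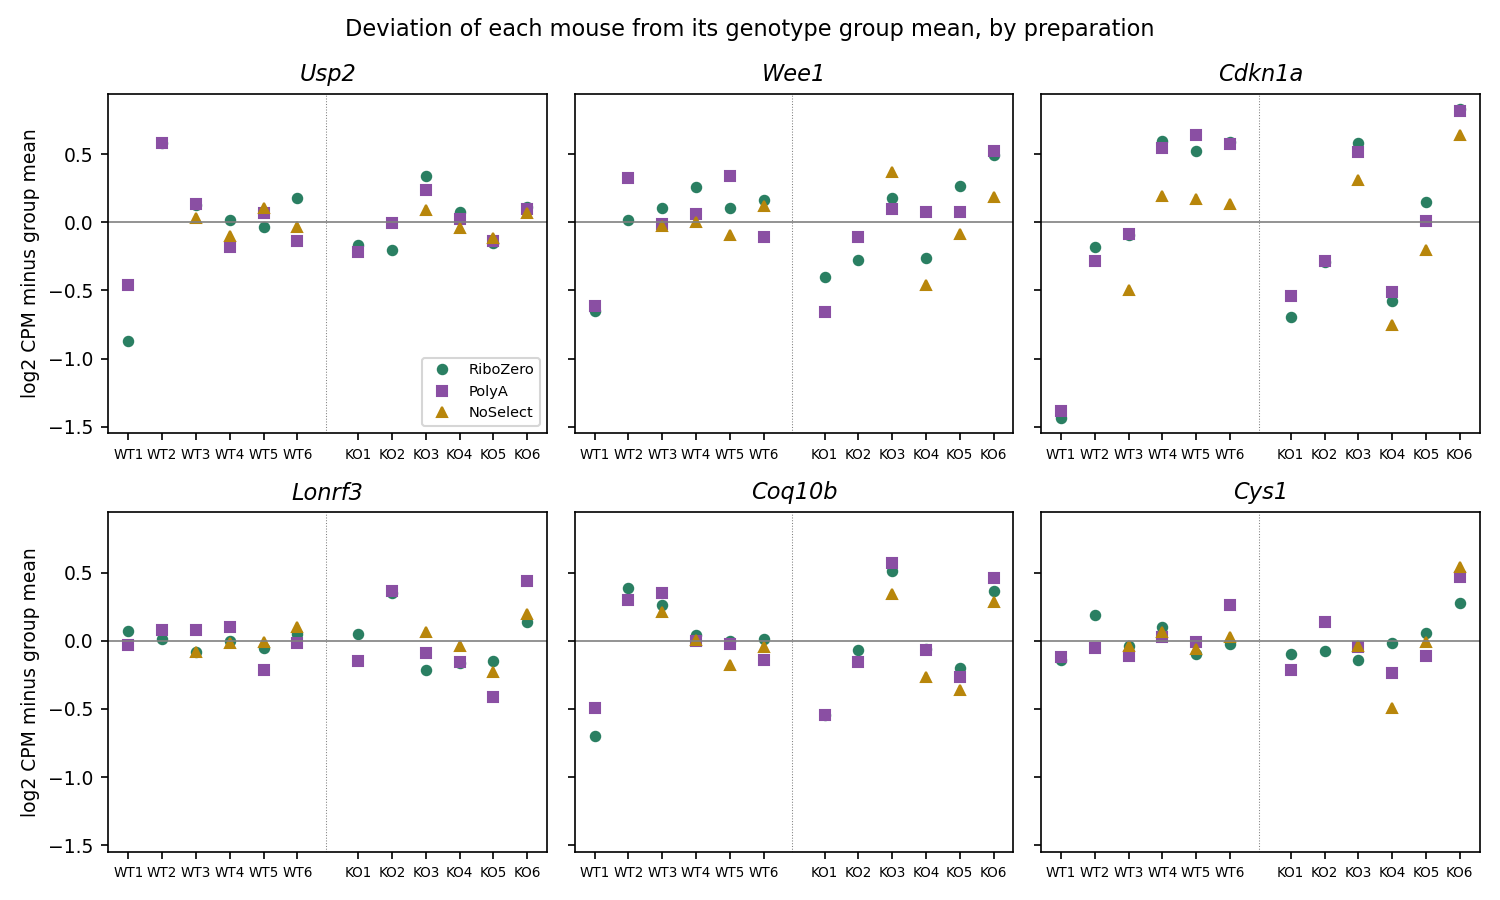
Deviation of each mouse from the mean of its genotype within a preparation, in log2 CPM (y axis), for WT and KO mice 1 to 6 (x axis), with RiboZero as circles, PolyA as squares and NoSelect (mice 3 to 6) as triangles. For Cdkn1a the RiboZero and PolyA symbols of a mouse lie close together across a range from -1.44 to 0.83. The NoSelect symbols, set against the mean of mice 3 to 6 alone, lie below them. WT mouse 1 is the lowest WT mouse in RiboZero and PolyA in all panels but Lonrf3, by little for Cys1.

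Whether the KO difference itself depended on the preparation was tested as an interaction over libraries of both preparations. None of the 6 genes was called in any of the 3 pairs, in which 0% of all rows (0 of 18164, 18372 and 17502) were called by edgeR's quasi-likelihood test. An unadjusted p under 0.05 was reached by 331 (1.82%), 412 (2.24%) and 244 (1.39%) rows and by 0 of the 6 genes. DESeq2 called 11, 13 and 9 rows and 0 of the 6 genes. These fits treated libraries of the same lung as independent. Fewer rows passed than chance alone would give, so the lack of calls in them says little. The largest difference among the 6 was that of Lonrf3 in PolyA against RiboZero, 0.33 (SE 0.168), that of Wee1 in PolyA against NoSelect, -0.40 (SE 0.278), and that of Cys1 in RiboZero against NoSelect, 0.37 (SE 0.197). With the mouse as a block, these were 0.32 (SE 0.106, unadjusted p = 0.0086), -0.27 (SE 0.176, unadjusted p = 0.156) and 0.47 (SE 0.148, unadjusted p = 0.00953). Cys1 in PolyA against RiboZero was then -0.25 (SE 0.115, unadjusted p = 0.0445). The blocked fits put 940 (5.18%), 1468 (7.99%) and 696 (3.98%) of all rows under an unadjusted p of 0.05, and 2, 0 and 1 of the 6 genes. None of these passed adjustment over all rows in edgeR, where the blocked fits called 1, 0 and 1 rows. The calls of Wee1 and Lonrf3 in PolyA alone thus do not show a difference between preparations. The lack of interaction calls does not show that the KO difference was equal in them.

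The level of Lonrf3 differed more between preparations than between genotypes. Its 12 PolyA libraries lay 6.63-fold below RiboZero and 5.91-fold below NoSelect (log2 fold changes -2.73, SE 0.0933, and -2.56, SE 0.0963). Differences between preparations depend on the TMM scaling. By total count alone, Lonrf3 in WT mouse 3 was 92 of 34025137 in PolyA and 360 of 98210735 in NoSelect, a smaller gap. Cys1 there was 123 of 21543834 in RiboZero and 404 of 98210735 in NoSelect, the opposite order to that below. With median-of-ratios scaling, Lonrf3 was at -2.78 and -2.63, and Cys1 in RiboZero against NoSelect at -1.15. For Cys1 and Cdkn1a, RiboZero was the lowest preparation. PolyA lay above RiboZero by 2.43-fold (1.28, SE 0.0809) and 2.69-fold (1.43, SE 0.253), and RiboZero lay below NoSelect (-1.14, SE 0.103, and -1.05, SE 0.246). PolyA against NoSelect was 0.18 (SE 0.109) and 0.41 (SE 0.247), neither called. Blocked by mouse, edgeR gave 0.22 and 0.67 there, with adjusted p of 0.0029 and 5.23e-11 and under the fold. Wee1 was lower in PolyA than in NoSelect (-1.07, SE 0.141). Calls here needed an adjusted p under 0.05 by edgeR and a log2 difference of 1 or more in either direction, and 3, 2 and 2 of the 6 genes passed in PolyA against RiboZero, PolyA against NoSelect and RiboZero against NoSelect, where 23.6%, 25.1% and 4.3% of all rows passed. With the mouse as a block the call was kept for Lonrf3 and Cys1 in each pair where it was made and for Cdkn1a in PolyA against RiboZero. It was lost under the fold for Wee1 in PolyA against NoSelect (-0.95) and for Cdkn1a in RiboZero against NoSelect (-0.80). Without KO mouse 6 the same 3, 2 and 2 calls were made. The call of Cdkn1a in RiboZero against NoSelect was also lost without WT mouse 1 or KO mouse 1, the 2 mice numbered 1 that have no NoSelect library. Usp2 was also lowest in RiboZero, by less than the fold needed for a call. It was at 0.68 (SE 0.122) in PolyA against RiboZero and -0.63 (SE 0.117) in RiboZero against NoSelect. PolyA against NoSelect was 0.09 (SE 0.0951) for Usp2. Coq10b was the most even gene, with log2 differences of 0.16, 0.30 and 0.11 that were under the fold; blocked by mouse, they were 0.15, 0.40 and 0.21, with adjusted p of 1.17e-04, 5.73e-08 and 1.06e-05.

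**Figure D4:**
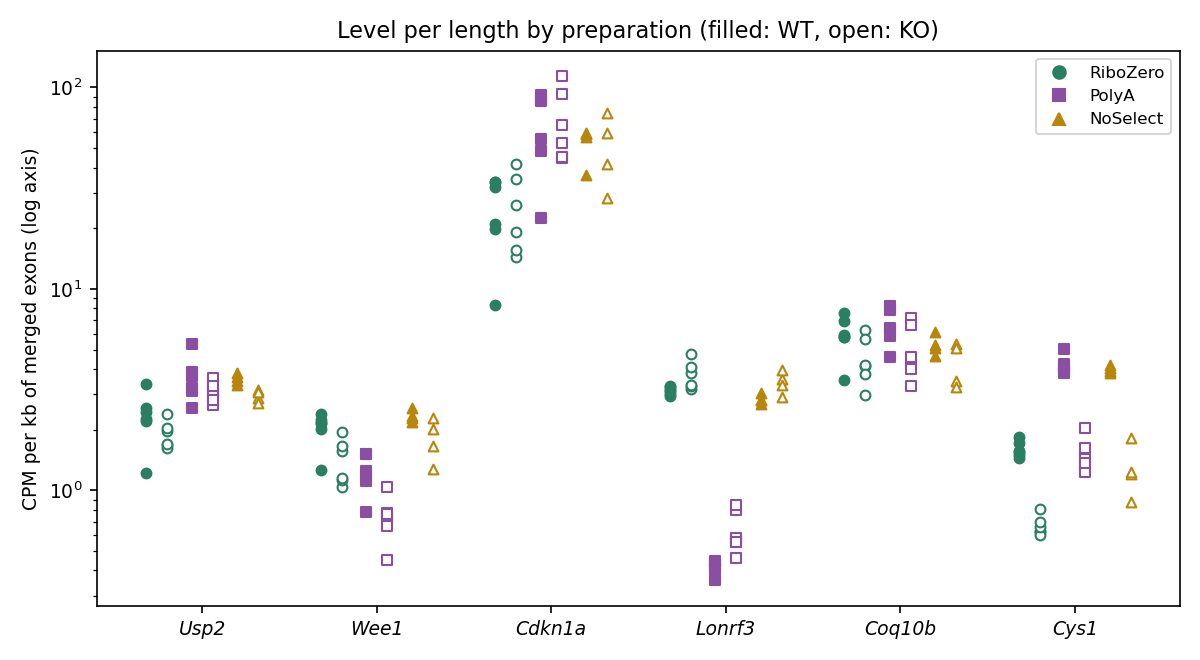
Level of each gene per kilobase of merged exons (log y axis, CPM per kb) in every library, by preparation, with WT filled and KO open. The PolyA points of Lonrf3 lie well below its RiboZero and NoSelect points in both genotypes. For Cys1 the RiboZero points lie below those of PolyA and NoSelect within each genotype. For Cdkn1a the RiboZero points are lower on average but overlap the others.

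Compared per length of merged exons, Cdkn1a had the highest level of the 6 in every group, at 24.9 ± 10.3 CPM per kb in WT RiboZero, 65.0 ± 27.6 in WT PolyA and 52.8 ± 10.7 in WT NoSelect. Coq10b came second in every group, at 5.92 ± 1.37, 6.55 ± 1.34 and 5.29 ± 0.595 CPM per kb in the WT groups. In WT RiboZero the order went on with Lonrf3, Usp2, Wee1 and Cys1, where neighbours overlapped in their libraries. In WT PolyA it went on with Cys1 (4.18 ± 0.438 CPM per kb), Usp2 (3.63 ± 0.948), Wee1 (1.23 ± 0.277) and Lonrf3 (0.416 ± 0.0334), and Coq10b and Cys1 overlapped, as did Cys1 and Usp2. Cys1 was last in both genotypes in RiboZero (0.67 ± 0.0767 CPM per kb in KO, with no overlap with Wee1). In NoSelect it was the third in WT and last in KO (1.28 ± 0.389 CPM per kb), where it overlapped Wee1.

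The genes whose log2 CPM ran closest to each of the 6 were ranked by the smaller of Pearson's r over the 12 RiboZero and the 12 PolyA libraries, among 12593 rows. These values are descriptions across libraries that share mice, genotype and depth. For Cys1 the genes were Nr1d2 (0.979 in RiboZero, 0.963 in PolyA), Clec11a (0.966, 0.954) and Nr1d1 (0.965, 0.946). Among WT PolyA libraries, Nr1d1 was highest in mouse 2, at 40.9 CPM against a WT median of 20.4. Cys1 was at 11.8 CPM in that library, against a WT median of 12. In RiboZero, WT mouse 2 was the highest WT library for both genes. Nr1d1 was at 23.6 CPM there (WT median 10.3) and Cys1 at 5.39 CPM (WT median 4.61). Coq10b ran closest to Fosl2 (0.987, 0.974), Nr4a3 (0.975, 0.955) and Atf3 (0.955, 0.96), and Usp2 to Nr4a2 (0.927, 0.878), Nt5dc3 (0.858, 0.845) and Aen (0.897, 0.845). Cdkn1a ran closest to Tinagl1 (0.953, 0.969), Tsc22d3 (0.945, 0.942) and Ube2g2 (0.941, 0.945). Wee1 ran closest to Medag (0.938, 0.941), Slc38a4 (0.956, 0.926) and Irs2 (0.913, 0.916), and Lonrf3 to Blzf1 (0.864, 0.895), Ermp1 (0.859, 0.842) and Pdp1 (0.836, 0.893). Over the 8 NoSelect libraries, which the ranking did not use, r was much lower for Nr4a2, Nt5dc3 and Aen with Usp2 (0.445, 0.333 and 0.375), for Medag with Wee1 (0.47) and for Pdp1 with Lonrf3 (0.254). It was 0.792 to 0.978 for the other 13 named genes.

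Genes related to the 6 by function were read from 8 lists, without the 6 themselves. Like the 6, the lists were chosen with earlier results of these data known. Of all rows tested, 1.63%, 2.41% and 0.981% were called lower and 1.84%, 1.62% and 1.19% higher in RiboZero, PolyA and NoSelect. Called genes are named for every list, but nothing is read from a list whose share of calls is near these. Among 10 genes of the G2/M transition, on which WEE1 acts through CDK1, 1 of 9 tested was called lower in RiboZero, 2 of 10 in PolyA and 1 of 9 in NoSelect, and none higher. Their median log2 fold changes were -0.33, -0.42 and -0.32, whereas the median over all rows tested was -0.0029 in PolyA and nearer to 0 in the other two. Cdc25b, a phosphatase that activates CDK1, was the call in each preparation, at -0.80 (SE 0.0917, adjusted p = 3.19e-04), -0.91 (SE 0.106, adjusted p = 4.85e-04) and -0.75 (SE 0.106, adjusted p = 0.0113) in RiboZero, PolyA and NoSelect by edgeR with Benjamini-Hochberg adjustment. Its WT and KO means were 15.5 ± 1.45 and 8.95 ± 1.17 CPM in RiboZero (n = 6 each). Ccnb2, a cyclin of mitosis, was called in PolyA (-0.64, SE 0.147), and its values in RiboZero and NoSelect were -0.43 (adjusted p = 0.341) and -0.59 (adjusted p = 0.259). Without KO mouse 6 the same genes were called, with Cdc25b at -0.77, -0.88 and -0.67. Beside these, 0 of 7 markers of proliferating cells were called, and their summed level was 37.5 to 70.5 CPM in WT and 24.9 to 45.4 CPM in KO PolyA libraries, with a like order in RiboZero (59.6 to 130.0 and 41.6 to 76.7) and NoSelect (66.9 to 118.0 and 54.3 to 68.5); their part in the result was not tested.

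Among the 6 other CDK inhibitors, related to Cdkn1a, Cdkn1b was called higher in RiboZero (0.21, SE 0.0517) and Cdkn1c in NoSelect (0.48, SE 0.0935), and none was called in PolyA, where their values were 0.19 (adjusted p = 0.068) and 0.36 (adjusted p = 0.0894). Without KO mouse 6, Cdkn1b was called in NoSelect too (0.30, adjusted p = 0.0183) and Cdkn1c was not (0.47, adjusted p = 0.0649). Of 19 other p53 targets, Phlda3 was called higher in each preparation (0.30, 0.29 and 0.34) and no other gene was called, with list medians of 0.02, -0.02 and -0.01. Its PolyA call was lost without KO mouse 6 (0.30, adjusted p = 0.0503). Of 12 other genes of coenzyme Q synthesis and binding, Coq7, a hydroxylase of the synthesis pathway, was called higher in each preparation. Its WT and KO means were 6.78 ± 1.1 and 10.1 ± 1.23 CPM in RiboZero (n = 6 each), and its log2 fold changes were 0.58 (SE 0.113), 0.72 (SE 0.116) and 0.72 (SE 0.127) in RiboZero, PolyA and NoSelect. The list medians were 0.05, 0.05 and 0.02, and Coq7 was called in each preparation without KO mouse 6 as well (0.56, 0.71 and 0.65).

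Of 17 other clock outputs shared by tissues, Por, the cytochrome P450 reductase, and Fmo2, a flavin monooxygenase of lung, were called lower in RiboZero (-0.40, SE 0.0703, and -0.44, SE 0.0945). Fmo2 was also called in NoSelect (-0.61, SE 0.0755), and no gene of that list was called in PolyA or called higher. The values that missed the call were of like size for Por in PolyA (-0.44, adjusted p = 0.0821) and NoSelect (-0.31, adjusted p = 0.0914) and for Fmo2 in PolyA (-0.40, adjusted p = 0.0792). The list medians were -0.04, -0.06 and -0.04, and without KO mouse 6 they were -0.12, -0.14 and -0.15, with Por called in NoSelect too (-0.36, adjusted p = 0.0498). Among 38 other ubiquitin-specific proteases, Usp11 was called lower in RiboZero (-0.25, SE 0.06) and none in PolyA or NoSelect, where Usp11 was at -0.25 (adjusted p = 0.0776) and -0.10 (adjusted p = 0.632). Among 14 other genes of cystic kidney disease and ciliary lipoprotein transport, Unc119b, a carrier of lipidated ciliary proteins, was called higher in RiboZero (0.25, SE 0.0603) and PolyA (0.24, SE 0.0599) and none in NoSelect, where Unc119b was at 0.26 (adjusted p = 0.114). Its RiboZero call was lost without KO mouse 6 (0.23, adjusted p = 0.0708). No other gene of that list was called lower, which for 14 genes is near the share over all rows. Neither of the 2 other LONRF genes was called.

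**Figure D5:**
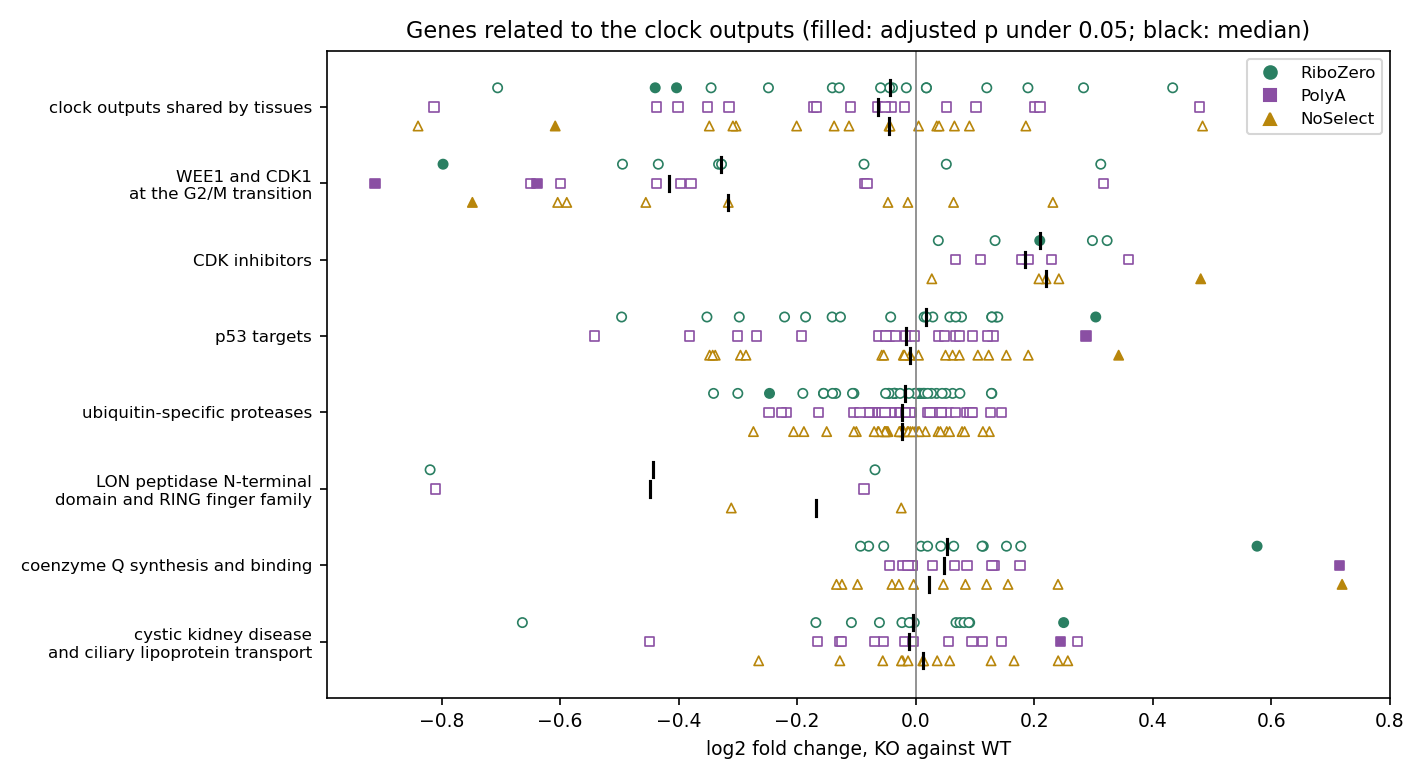
Log2 fold change of KO against WT (x axis) for every tested gene of the 8 related lists, with RiboZero as circles, PolyA as squares and NoSelect as triangles; filled symbols passed an adjusted p under 0.05 and black bars are list medians. The G2/M list lies mostly below 0, with medians from -0.42 to -0.32, and Coq7 stands apart at 0.58 to 0.72 in its list.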

How the data were processed

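RNA of mouse lung was sequenced in 32 libraries. Estimated counts were deposited by the authors as 1 table, whose rows are 37751 gene and 3936 transcript identifiers, 37649 of them with a symbol. Of the values, 12.81% were not whole. Salmon 1.4.0, UMI-tools 1.1.1 and GRCm38 are named in the submitters' processing notes; their settings are not given in the sources used here. Libraries were built with 11 PCR cycles, per the labels' protocols. Estimated counts were rounded.

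Rows that passed filterByExpr were fitted with edgeR 4.0.16 (R 4.3.3; TMM scaling, quasi-likelihood test, Benjamini-Hochberg over all rows tested), with genotype within a preparation, and with genotype, preparation and their interaction over pairs of preparations. The SE is the absolute log2 fold change over the square root of the F statistic. The test was also run on simulated counts, drawn independently for each library. These hold no effect shared by libraries of 1 mouse, so they do not check the tests between preparations in that respect. Alternatives were DESeq2 1.42.0, median-of-ratios scaling, no filter, at least 10 counts in every library, gene identifiers alone without Lars2, the mouse number as a block, 1 fit of all 32 libraries, mice 3 to 6 alone, and each mouse left out. Leaving out KO mouse 6 for the lists, and WT mouse 1 for the spread, was added after seeing the data.

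The members and lists were chosen with earlier results of these data known. Genes named are the 6 outputs, Arntl, Nr1d1, at most 4 called genes per list by mean absolute fold change, and the 3 rows most like each output among rows averaging 1 or more in log2 CPM. Markers of other tissues served as checks.

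Labels give the same mouse number to the preparations of 1 lung. Deviations from the group mean correlated at 0.48 to 0.773 (12 pairs), 0.481 to 0.692 (8) and 0.383 to 0.643 (8) for PolyA with RiboZero, PolyA with NoSelect and RiboZero with NoSelect over 13371 rows, so numbers pair preparations. WT and KO mice of the same number are different animals, so numbers do not pair genotypes. Replicates differed beyond sampling noise, with a chi-square per degree of freedom of 6.67 to 65.9 over 72 pairs.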

Additional observations from a re-analysis of the deposited data

Results flagged for a closer look

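Of 36 groups of 4 or 6 libraries checked for 1 library far from the rest, 3 had one, and chance gives about 5% of groups. Wee1 was at 4.32 CPM in the RiboZero library of WT mouse 1, with the nearest WT library at 6.90. Cdkn1a was at 131.0 CPM in the NoSelect library of WT mouse 3, with the nearest at 202.0. Cys1 was at 14.8 CPM in the PolyA library of WT mouse 6, with the nearest at 12.6. Without WT mouse 1 the RiboZero log2 fold change of Wee1 moved from -0.54 to -0.64.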

How the results depend on the processing

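The RiboZero count of 579 rows called was 985 with DESeq2, 372 with the replicate block, 891 with all 32 libraries in 1 fit, 255 in mice 3 to 6 alone and 380 to 644 with 1 mouse left out. The PolyA count of 694 (279 higher, 415 lower) was 1355 with DESeq2, 1564 (961 higher, 603 lower) with all 32 libraries and 442 to 1066 with 1 mouse left out. The NoSelect count of 372 was 874 with DESeq2, 103 with the replicate block and 148 to 472 with 1 mouse left out. Of the 6 outputs, the 3 called in PolyA became 1 with no filter or in mice 3 to 6 alone and 1 to 2 with 1 mouse left out. The 1 called in NoSelect became 2 with DESeq2, and the 1 in RiboZero ranged from 1 to 2 with 1 mouse left out. The 2 called in PolyA against NoSelect and the 2 in RiboZero against NoSelect each became 1 with the replicate block, and the latter ranged from 1 to 2 with 1 mouse left out.

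Directions turned only for small values. Cdkn1a in KO was -0.0346 (RiboZero) and -0.0464 (PolyA) in mice 3 to 6 alone, and with 1 mouse left out it ranged from -0.18 to 0.14, -0.13 to 0.17 and -0.29 to 0.15 in RiboZero, PolyA and NoSelect. For the KO difference between preparations, Coq10b in PolyA minus RiboZero (0.0088) was -0.0106 with DESeq2, -0.0021 with median-of-ratios scaling, -0.0104 with at least 10 counts and -0.0238 with the replicate block. Usp2 in PolyA minus NoSelect (-0.0109) was 0.0151, 0.0151, 0.0076 and 0.0936 under the same 4 settings. With the replicate block, Cdkn1a in PolyA minus NoSelect was -0.0112, and Usp2 and Coq10b in RiboZero minus NoSelect were 0.0249 and 0.0030. With 1 mouse left out, the ranges were -0.0193 to 0.0346 (Coq10b, PolyA minus RiboZero), -0.0969 to 0.1217 (Usp2), -0.0985 to 0.1876 (Cdkn1a) and -0.0044 to 0.226 (Cys1) in PolyA minus NoSelect, and -0.1815 to 0.0828 (Usp2), -0.1096 to 0.191 (Cdkn1a) and -0.0967 to 0.0318 (Lonrf3) in RiboZero minus NoSelect. The cause was not tested.

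Across genotypes the replicate numbers belong to different animals: same-numbered deviations correlated at -0.119 to 0.233, -0.163 to 0.263 and -0.141 to 0.134 in RiboZero, PolyA and NoSelect, and 2 of 12, 3 of 12 and 0 of 8 libraries correlated best with their own number. Counts of 25 to 62 limit Cys1 in KO RiboZero libraries, and 80 to 200 limit Lonrf3 in PolyA.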
